A study of Mus musculus with 6 samples.

Results

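The colon moves calcium and magnesium through its epithelium with a small set of proteins, 9 of whose genes are described here. They were found by symbol among the 43432 Ensembl genes of the deposited count table: S100g, Trpv6, Atp2b1, Vdr, Rxra, Cyp24a1, Trpm6, Trpm7 and Casr. The set was drawn up with the stress contrast of these same libraries in view, because S100g had the smallest p of all genes tested. Its difference between the groups is therefore given as a description and counts as no independent support for anything said of the set.

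In the gut, calcium enters the cell through the apical channel TRPV6, is carried by the cytosolic buffer calbindin-D9k (the product of S100g), and leaves through the basolateral calcium pump PMCA1 (the product of Atp2b1). The vitamin D receptor, paired with a retinoid X receptor, raises the transcription of these genes when it binds the active hormone. It also raises Cyp24a1, whose enzyme breaks that hormone down. Magnesium enters through channels built from TRPM6 and TRPM7, and the calcium-sensing receptor CASR reads calcium outside the cell.

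The libraries came from the colon of wild-type mice, 3 resting (mice 15, 17 and 19) and 3 stressed (mice 10, 11 and 13), with 1 poly(A) RNA library per mouse. Stressed mice were dissected directly after the last of 3 daily restraint episodes of 30 min each; the notes on resting mice repeat the restraint text, and the groups were therefore taken from the titles and treatment labels. The labels give no age, sex or feeding state. Library totals ran from 16425525 to 19819267 counts. The tissue label was checked against marker genes: colonocyte genes such as Car1 (9049 ± 1471 CPM, counts relative to the TMM-scaled library total, in resting mice; SD, n = 3) and Krt20 (1598 ± 282) were abundant. Of the small intestinal markers, Lct, Apoa4 and Fabp1 averaged at most 0.204 CPM in either group, while Fabp2 (580 CPM at rest), Apob (222) and Sis (28.0) were present. In bulk tissue, fewer cells of a type and less RNA per cell cannot be told apart.

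Promoter sequences were taken from RefSeq (GRCm38.p6), which held 10 start windows for 8 of the 9 genes. The windows of S100g and Trpv6 are shown because both genes are textbook vitamin D targets yet stood near opposite ends of the levels in this colon. Each runs from 250 bases before the annotated start to 30 bases after it, on the gene's own strand. Capitals mark AGGTCA, the hexamer that nuclear receptors such as VDR recognise, on either strand, and TATAAA, the letters of a TATA box. S100g lies at chrX:162964570-162964849 and Trpv6 at chr6:41636376-41636655, both on the minus strand.
S100g: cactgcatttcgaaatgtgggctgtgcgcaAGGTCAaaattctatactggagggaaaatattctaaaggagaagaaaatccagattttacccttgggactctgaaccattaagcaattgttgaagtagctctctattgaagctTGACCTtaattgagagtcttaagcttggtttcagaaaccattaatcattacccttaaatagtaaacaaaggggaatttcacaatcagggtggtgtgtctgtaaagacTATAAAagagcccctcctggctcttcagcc
Trpv6: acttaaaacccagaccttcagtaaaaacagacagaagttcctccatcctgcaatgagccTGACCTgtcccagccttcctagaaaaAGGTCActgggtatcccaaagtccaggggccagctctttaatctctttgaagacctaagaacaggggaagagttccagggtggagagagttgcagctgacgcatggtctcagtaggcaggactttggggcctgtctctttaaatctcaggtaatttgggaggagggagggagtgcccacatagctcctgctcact

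The S100g window held AGGTCA with its first base at -220 and its reverse complement at -107, counted from the annotated start. The Trpv6 window held the reverse complement at -191 and AGGTCA at -165. An Rxra window also held the reverse complement, at -87, and AGGTCA at -48. At least 1 copy of this hexamer, on either strand, was in 16.3% of 32851 promoter windows of 300 bases, so holding it is common. The share of windows with it on both strands was not counted. TATAAA began at position 1 of S100g, at the annotated start and not upstream of it. Whether it serves as a TATA box was not tested. TATAAA was found in 13.6% of all windows and in no other window of the set. The reverse complement of TATAAA contains the caudal homeobox core TTTAT (40.0% of windows), so the S100g match to that core overlaps TATAAA. Neither the spaced repeat GNTCANNNNGNTCA (0.7% of windows) nor the glucocorticoid receptor palindrome GNACANNNTGTNC (0.475%) was in any of the 10 windows, which speaks only for these letters in these stretches. By base composition the S100g window was 41.0% G and C, against 51.3% for Trpv6, 79.3% for both Atp2b1 windows and a median of 52.7% over all windows.

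Stressed colon held 3.44 times as much S100g RNA as resting colon. Calbindin-D9k RNA stood at 80.6, 88.7 and 97.1 CPM in resting mice 15, 17 and 19. After stress it stood at 297, 228 and 392 CPM in mice 10, 11 and 13. Every stressed mouse was above every resting mouse, and the lowest stressed value was 2.35 times the highest resting one. The stressed mice also differed more among themselves, by 1.72-fold from lowest to highest against 1.20-fold at rest. The log2 fold change was 1.78 ± 0.17 (SE; 95% interval 1.42 to 2.15), with an adjusted p of 0.00858 over all genes in edgeR's quasi-likelihood test. The adjusted p was 0.106 without resting mouse 15 (log2 fold change 1.72) and 0.175 with a small intestine marker score as a covariate (1.81). That score did not overlap between the groups, so the fit cannot fully tell it apart from stress. S100g spans 162961992 to 162964599 on chromosome X of mm10 and overlaps Ctps2 on the opposite strand without sharing exon bases. The whole of Ctps2 had 434 to 513 counts in a library, against 1349 to 6444 for S100g.

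**Figure D1:**
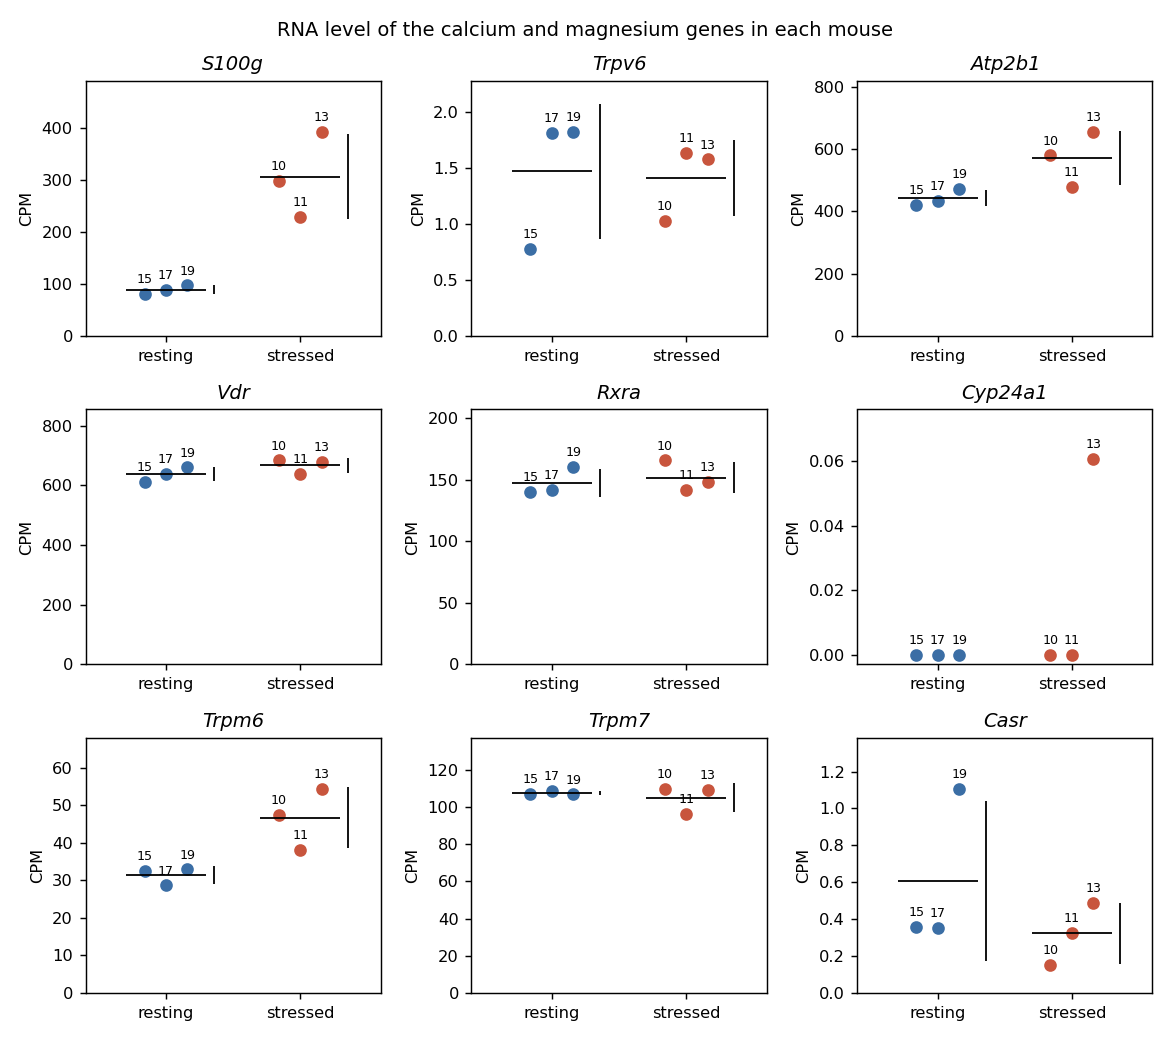
RNA level (CPM, linear axis) of each of the 9 genes in each mouse, with the mouse number above its point; horizontal bars are group means and vertical bars ± SD (n = 3), left out for Cyp24a1. S100g at 228 to 392 CPM in stressed mice stands clear of 80.6 to 97.1 CPM at rest, Atp2b1 and Trpm6 do not overlap between groups, and the other genes do.

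The entry channel gene was scarce, and its groups overlapped. Trpv6 had 13, 31 and 33 counts in resting mice and 20, 30 and 26 in stressed mice. That is 0.777, 1.82 and 1.82 CPM at rest and 1.03, 1.63 and 1.58 CPM after stress. Resting mouse 15 was the lowest of all 6. The Trpv6 log2 fold change was -0.07 (95% interval -0.87 to 0.73, edgeR adjusted p = 0.981), and changes within that interval are not excluded. The kidney channel gene Trpv5 had no count in any library.

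The gene of the exit pump had higher values in each stressed mouse but did not pass the test. Atp2b1 was at 421, 434 and 473 CPM at rest and 579, 479 and 654 CPM after stress. The groups did not overlap, although stressed mouse 11 lay only 1.01 times above the highest resting mouse. The log2 fold change was 0.37 ± 0.11 (95% interval 0.13 to 0.61) with an edgeR adjusted p of 0.496. It ranked 208 by p among the 16119 genes tested. Its adjusted p was 0.04 without the filter on low counts and 0.0475 with gene-wise dispersions, a fit chosen after seeing the data.

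The vitamin D receptor genes were abundant and close to level. Vdr had 612, 640 and 660 CPM at rest and 683, 638 and 679 CPM after stress, so the groups overlapped. Its log2 fold change of 0.06 had a 95% interval of -0.09 to 0.22 (edgeR adjusted p = 0.899). Rxra, which encodes the receptor's partner, was at 140, 141 and 160 CPM against 166, 142 and 148 CPM. Here the interval was -0.14 to 0.23 around 0.04 (edgeR adjusted p = 0.95), also with overlapping groups. The adjusted p-values do not show that either gene was unaffected, but a doubling lies outside both intervals.

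Cyp24a1, the catabolic enzyme gene that vitamin D induces, was at the limit of detection. It had 0 counts in 5 libraries and 1 count in stressed mouse 13. In the 5 libraries at 0, that count allows up to 3 counts, which is 0.154 to 0.179 CPM depending on the library, and this covers counting error only. Casr had 6, 6 and 20 counts at rest and 3, 6 and 8 after stress, or 0.359, 0.352 and 1.11 against 0.154, 0.327 and 0.486 CPM, with overlapping groups. Both genes were too low for the filter, so 7 of the 9 genes were tested. Cyp24a1 shares exon bases with Pfdn4 on the other strand, and no source used here states whether the counting used strand.

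Neither magnesium channel gene passed the test, but the groups were apart for Trpm6 and not for Trpm7. Trpm6, whose product forms the epithelial magnesium channel, was at 32.5, 28.7 and 32.9 CPM at rest and 47.5, 38.1 and 54.3 CPM after stress. No stressed mouse fell within the resting range, and the lowest was 1.16 times the highest resting mouse. The log2 fold change was 0.57 ± 0.12 (95% interval 0.31 to 0.84) with an edgeR adjusted p of 0.273, at rank 39 by p. It passed with DESeq2 (adjusted p = 0.00911), without the filter (0.000519), without stressed mouse 11 (0.0395) and with gene-wise dispersions (0.000358). Trpm7, the ubiquitous channel kinase, was at 107, 109 and 107 CPM at rest and 110, 96.2 and 109 CPM after stress. Its interval was -0.19 to 0.13 around -0.03 (edgeR adjusted p = 0.953), and the groups overlapped.

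**Figure D2:**
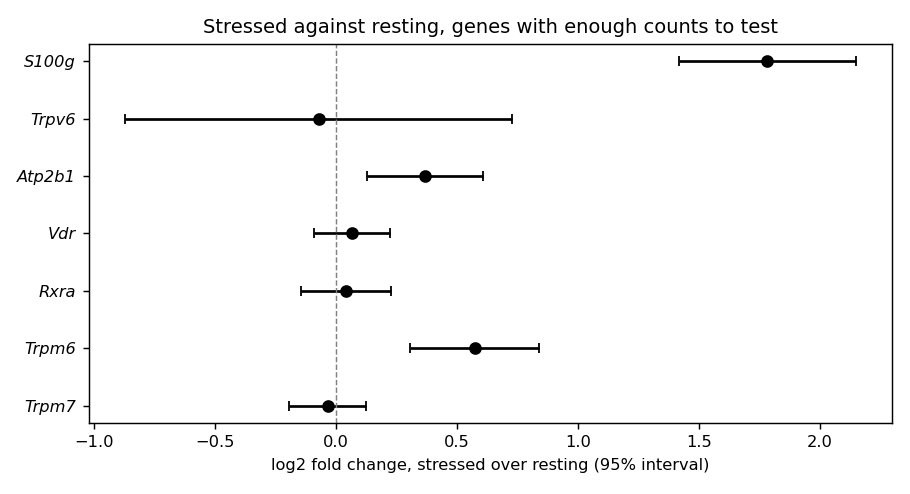
Log2 fold change, stressed over resting, with its 95% interval for the 7 genes that had enough counts to test. S100g lies at 1.78, Trpm6 at 0.57 and Atp2b1 at 0.37, with intervals above 0 before any correction for the number of genes, and the intervals of the other 4 include 0.

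Of the 7 tested genes 1 passed, in a table where 0.031% of all genes passed (5 of 16119; 4 higher and 1 lower). Groups did not overlap for 3 of the 7, each higher after stress, beside 6.13% of all genes that were separated in that direction. The unadjusted p was under 0.05 for the same 3, beside 6.92% of all genes. Since the contrast itself helped to choose the set, nothing is read from these shares. The median log2 fold change was 0.06 over the 7 genes, beside -0.0033 over all genes.

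The ratio of S100g to each other tested gene of the set was higher in all 3 stressed mice. The log2 ratio of S100g to Atp2b1 went from -2.32 ± 0.06 at rest to -0.92 ± 0.17 after stress (SD, n = 3 each). Relative to Trpm6 it went from 1.5 ± 0.17 to 2.69 ± 0.14. Over the 6 pairs the ratio was higher after stress by 1.19 (Trpm6) to 1.79 (Trpm7) on the log2 scale, and the groups overlapped for none. No test is given for these ratios, because the difference in S100g helped to choose the set.

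Within the stressed group the same mice were high and low for S100g, Atp2b1 and Trpm6. Mouse 13 was highest for S100g, Atp2b1 and Trpm6, at 4.41, 1.48 and 1.73 times the resting mean. Mouse 10 followed at 3.34, 1.31 and 1.52 times, and mouse 11 was lowest at 2.57, 1.08 and 1.22 times. Vdr was at 1.07, 1.0 and 1.07 times its resting mean in mice 10, 11 and 13. The order 13, 10, 11 is not particular to these genes. Car1 (12621, 11565 and 13021 CPM in mice 10, 11 and 13) and Slc30a10 (193, 164 and 234 CPM) had it too. How many other genes share it was not counted.

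**Figure D3:**
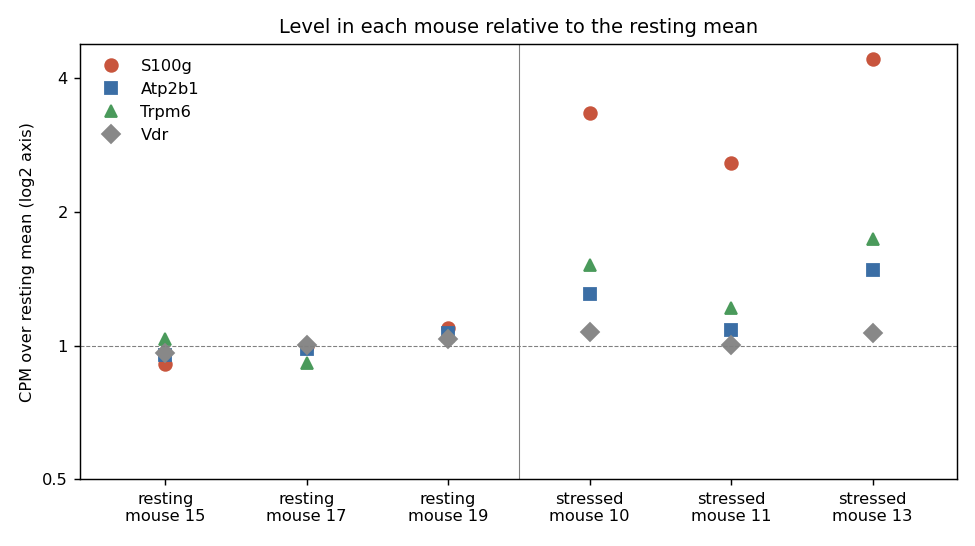
Level of S100g, Atp2b1, Trpm6 and Vdr in each mouse as a multiple of the gene's resting mean (log2 axis). In stressed mice the first 3 genes share the order 13, 10, 11, with S100g between 2.57 and 4.41 times the resting mean, while Vdr stays between 1.0 and 1.07 times.

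Levels were compared between genes per kilobase of annotated exon, which lowers the value of genes with long or rarely used exons such as Atp2b1 (15.2 kb). On that scale S100g was highest at rest, with 185 ± 17.1 CPM per kb, and reached 637 ± 171 after stress. Vdr followed at 113 ± 4.28 at rest, then Atp2b1 at 29.1 ± 1.77 and Rxra at 27.0 ± 2.08. Trpm7 had 9.51 ± 0.09 CPM per kb, Trpm6 4.06 ± 0.30, Trpv6 0.375 ± 0.15 and Casr 0.128 ± 0.09. The ranges of the resting mice overlapped between Atp2b1 and Rxra and between Trpv6 and Casr, so these neighbours in the order were not separated.

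**Figure D4:**
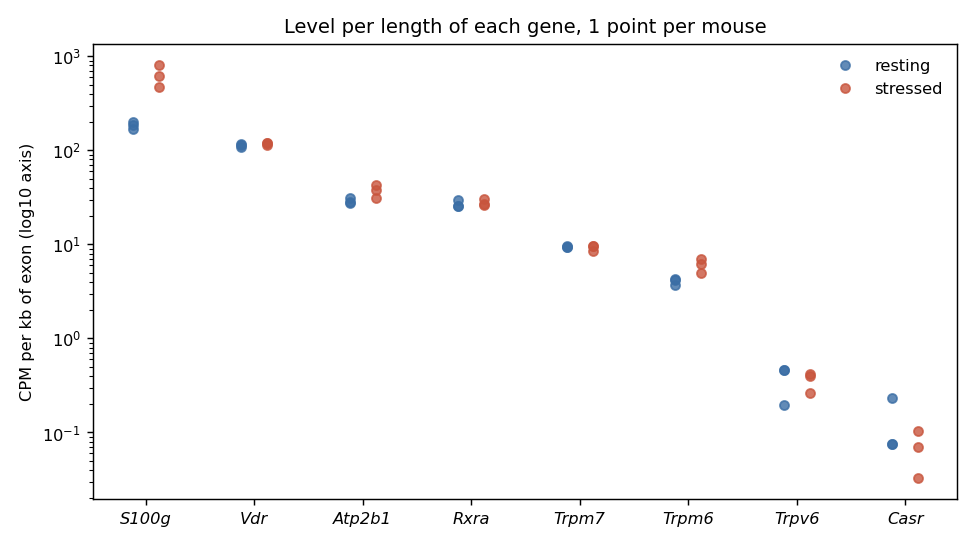
CPM per kb of annotated exon (log10 axis), 1 point per mouse, for the 8 genes with counts in all libraries, in order of the resting mean. S100g leads at 185 CPM per kb at rest and 637 after stress; Trpv6 and Casr lie lowest, below 0.5.

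Genes around the set were read from lists chosen by function with earlier results of these data known. Of the vitamin D metabolism and entry genes 4 of 8 were tested and none passed edgeR or limma-voom. An unadjusted edgeR p under 0.05 was found for 1, beside 6.92% of all genes. DESeq2 called 1 of the list and 56 genes in all. The list gene was Cubn in both cases. Cubn, which encodes cubilin, an uptake receptor for the vitamin D binding protein among other ligands, was at 24.8, 28.9 and 26.1 CPM at rest and 53.5, 34.8 and 48.4 CPM after stress. The groups did not overlap, and among stressed mice mouse 11 was again the lowest. Its log2 fold change was 0.78 (95% interval 0.47 to 1.09, edgeR adjusted p = 0.185; DESeq2 adjusted p = 0.000202). Dhcr7, which turns the vitamin D precursor into cholesterol, had 0.11. The hormone-making enzyme gene Cyp27b1 stood at 0.308 and 0.286 CPM and was not tested.

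Receptor partners and coregulators gave 0 of 12 tested genes past the threshold, with 3 above 0, 9 below and a median log2 fold change of -0.05. Med1, a Mediator subunit that binds the receptor, had -0.12 and the corepressor Ncor1 -0.11. None of these 12 had an unadjusted edgeR p under 0.05, and DESeq2 and limma-voom called 0. Regulators of intestinal S100g likewise gave 0 of 8, with a median of 0.04, none with an unadjusted edgeR p under 0.05 and 0 by DESeq2 and limma-voom. Cdx2, the intestinal homeobox factor, was at 362 ± 21.4 CPM after stress and 336 ± 26.9 at rest (log2 fold change 0.11, edgeR adjusted p = 0.841).

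Among vitamin D receptor targets of the intestine S100g was the gene that passed. Of 10 listed genes 8 were tested; 5 were above 0 and 3 below, with a median of 0.15, and 4 had an unadjusted edgeR p under 0.05, beside 6.92% of all genes. These were S100g, Atp2b1, Slc30a10 and Cldn2, the first and second of them members of the set. The following were picked after their values were seen. Slc30a10, a manganese exporter, had a log2 fold change of 0.33 (edgeR adjusted p = 0.694), and Abcb1a, a drug efflux pump, 0.27 (0.736). Cldn2, a claudin that lets calcium pass between cells, was lower in every stressed mouse, at 189 ± 49.7 against 261 ± 13.1 CPM, with a log2 fold change of -0.47 (0.577). Cldn12, another claudin tied to calcium, also had groups that did not overlap, at -0.11 (0.793).

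Along the transcellular calcium route 14 of 17 genes were tested, with S100g the gene that passed, 11 above 0 and a median of 0.11. An unadjusted edgeR p under 0.05 was found for 3 (S100g, Atp2b1 and Calb2), beside 6.92% of all genes. The related buffer calretinin, Calb2, a neuronal gene in the gut wall, was at 20.6 ± 1.36 against 15.04 ± 2.58 CPM without overlap (log2 fold change 0.46, edgeR adjusted p = 0.494; picked after its values were seen). Calb1, the larger vitamin D-dependent calbindin, lay at 0.369 and 0.27 CPM and was not tested. The other plasma membrane pump of note, Atp2b4, had 0.06, and the sodium-calcium exchanger Slc8a1 0.19. Calmodulins and intracellular stores gave 0 of 14 with a median of 0.02; the mitochondrial uniporter Mcu had 0.14 and the release channel Itpr2 0.15. None of these 14 had an unadjusted edgeR p under 0.05, and DESeq2 and limma-voom called 0.

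Calcium sensing and hormone genes gave 0 of 6 tested with a median of 0.04 and no unadjusted edgeR p under 0.05, and 0 were called by DESeq2 and limma-voom. Gna11, a G protein that couples to CASR, had 0.13 and the stanniocalcin gene Stc2 -0.15. In the magnesium list 0 of 14 passed edgeR or limma-voom, DESeq2 called Trpm6 (among 56 genes in all), and the median was 0.02. An unadjusted edgeR p under 0.05 was found for 2, Trpm6 and Egfr, beside 6.92% of all genes. Egfr, which encodes the receptor for the magnesium-conserving hormone EGF, was at 34.4 ± 1.6 CPM after stress against 41.5 ± 2.17 at rest (log2 fold change -0.27, edgeR adjusted p = 0.468). The basolateral exporter Cnnm4 was at 349.6 ± 19.2 CPM after stress and 344 ± 24.9 at rest.

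Among S100 and S100-binding genes 11 of 16 were tested and S100g was the gene that passed, with a median of 0.04 over the list. An unadjusted edgeR p under 0.05 was found for 2, S100g and S100pbp, beside 6.92% of all genes. S100pbp, which encodes an S100P-binding protein, was at 36.5, 33.1 and 34.1 CPM at rest and 30.0, 25.7 and 25.3 CPM after stress. Its groups did not overlap, and its log2 fold change was -0.35 (edgeR adjusted p = 0.449). The more abundant relatives S100a6 and S100a10 had log2 fold changes of -0.16 and 0.04. The neutrophil genes S100a8 and S100a9 averaged at most 0.126 CPM in either group.

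**Figure D5:**
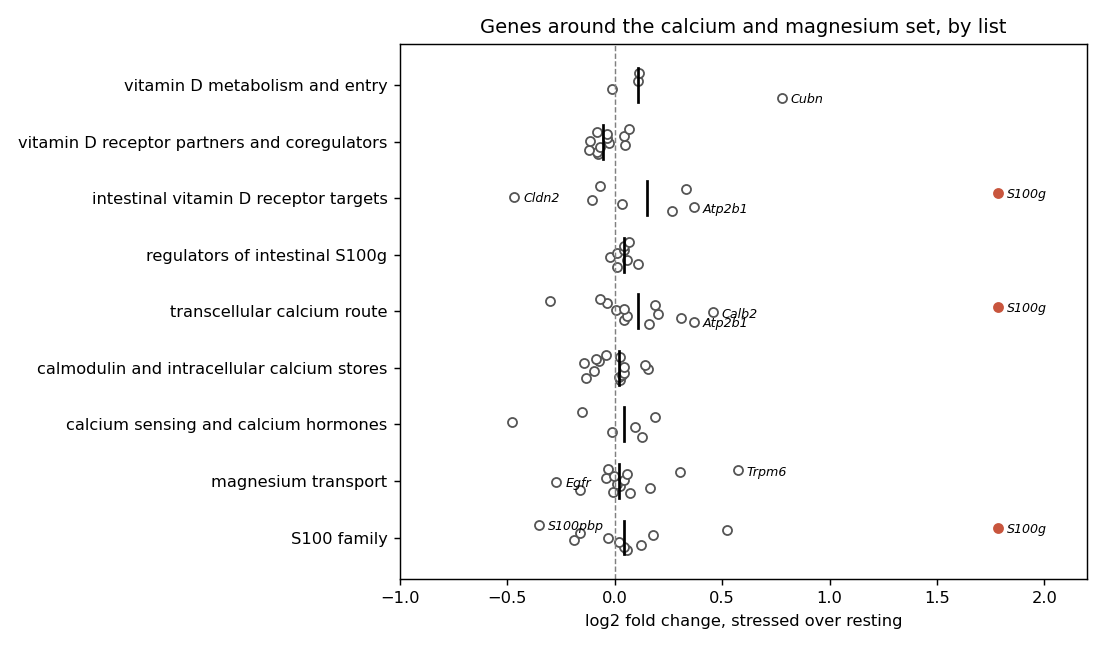
Log2 fold change, stressed over resting, of every tested gene in 9 lists; black bars are list medians, and filled red points passed the edgeR test over all genes. S100g at 1.78 is the filled point in each list that holds it, and the list medians lie between -0.05 and 0.15.

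Some marker sums moved with the groups. The 15 surface colonocyte markers, all tested with 10 above 0 and 5 below, summed to 32890 to 38040 CPM at rest and 38820 to 41340 after stress, 1.14 times higher on average without overlap. Relative to that sum S100g was 3.01 times higher, at 7.66 ± 2.05 against 2.54 ± 0.16 per 1000 CPM of markers, without overlap. On the same measure Trpm6 was 1.30 times higher without overlap, whereas Atp2b1 was 1.13 times higher with overlapping groups. This scaling was chosen after the data were seen, and Car1 and Lypd8 made up 54.9% of the sum at rest and 59.1% after stress. The single markers did not move together. An unadjusted edgeR p under 0.05 was found for 4 of the 15, beside 6.92% of all genes, and none passed. Car1 (log2 fold change 0.45; 12402 against 9049 CPM) and Cdhr5 (0.21) were higher. Aqp8 (-1.06; 59.7 against 125 CPM) and Slc26a3 (-0.25) were lower. The part of the colonocyte markers in the results was not tested.

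The summed distal colon markers differed between libraries largely through Hoxa13. The 8 distal colon markers, 5 of them tested with 2 above 0 and 3 below, summed to 33.8, 31.9 and 18.1 CPM in resting mice 15, 17 and 19 and to 18.7, 19.6 and 18.8 in stressed mice 10, 11 and 13. Hoxa13 alone was at 15.5, 11.6 and 1.82 CPM at rest and 2.26, 1.8 and 0.608 CPM after stress. Without it the sums were 18.3, 20.3 and 16.3 CPM at rest and 16.4, 17.8 and 18.2 CPM after stress, with overlapping groups. An unadjusted edgeR p under 0.05 was found for 2 of the 5, Hoxa13 (log2 fold change -2.60) and Hoxa11 (-0.48), beside 6.92% of all genes. None passed. Insl5 had -0.50, whereas Hoxd10 had 0.21 and Hoxd11 0.26. Hoxb13, not tested, had 11, 6 and 0 counts in resting mice 15, 17 and 19 and 0 in each stressed mouse. With the distal marker score as a covariate the S100g fold change was 1.75 on the log2 scale (edgeR adjusted p = 0.0199). Of 14 absorptive markers of small intestine 10 were tested, 7 above 0 and 3 below, with a summed level of 838 to 973 CPM at rest and 779 to 1032 after stress. The median log2 fold change of the tested 10 was 0.40, and 5 had an unadjusted edgeR p under 0.05, beside 6.92% of all genes. None passed. Sis was higher at 56.8 ± 22.5 against 28.0 ± 3.57 CPM, and Rbp2 at 20.9 ± 2.5 against 14.6 ± 1.65. The more abundant Fabp2 was lower at 510 ± 52.2 against 580 ± 76.3 CPM, and Apob at 209 ± 61.5 against 222 ± 62.8, both with overlapping groups. The small intestine score averages the standardised log2 CPM of the tested markers, unlike the sum. It was -0.57, -0.51 and 0.02 in resting mice 15, 17 and 19. In stressed mice 10, 11 and 13 it was 0.63, 0.31 and 0.12. The groups did not overlap on this score, so a fit with both cannot fully tell it apart from stress. With it as a covariate the S100g fold change was 1.81 on the log2 scale (edgeR adjusted p = 0.175). Of 8 Paneth cell markers 3 were tested, Defa17 and Defa22 had no counts, and the sums were 4.59 to 7.52 and 4.51 to 7.79 CPM. The part of these differences in the S100g result was not tested further.

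Markers of the other wall and blood cells were summed in the same way. Smooth muscle (3729 to 4650 at rest, 4161 to 4834 CPM after stress), adipocyte (556 to 735, 570 to 807), goblet cell (9863 to 11470, 9278 to 13320), plasma and B cell (842 to 1261, 801 to 1487) and macrophage markers (395 to 523, 227 to 972) had sums that overlapped between the groups. Enteric neuron sums overlapped narrowly, at 105 to 125 and 124 to 139 CPM. Among single markers, 9 of 10 adipocyte markers were above 0 (median 0.38), with Pck1 below 0, as were 9 of 10 neuron markers (median 0.21). Smooth muscle (9 of 10, median 0.11) and goblet cell markers (7 of 8, median 0.20) were also mostly above 0. Below 0 were 5 of 8 plasma and B cell markers and 5 of 8 macrophage markers. Of all 16119 genes tested 7906 were above 0. An unadjusted edgeR p under 0.05 was found for 5 adipocyte and 4 neuron markers, beside 6.92% of all genes, and none passed. Sums of the 5 erythrocyte genes did not overlap, at 7.91 to 23.8 CPM at rest and 30.8 to 37.1 CPM after stress. Of these, 4 were tested, and all 4 were above 0 (median log2 fold change 1.48). Each had an unadjusted edgeR p under 0.05, beside 6.92% of all genes. None of the 4 passed edgeR or limma-voom, and DESeq2 called 2, Hba-a2 and Hbb-bt, among 56 genes in all. Whether any of these bears on the calcium genes was not tested.

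The profiles most like that of S100g were sought among 11035 named genes with a mean of at least 5 CPM, by the root mean square distance of centred log2 CPM over the 6 libraries. Among the nearest were Igfbp6 (distance 0.44), Defb37 (0.45), Scd1 (0.47) and C3 (0.48). Their log2 fold changes were 0.97, 1.02, 1.03 and 0.96, all smaller than that of S100g, and none of these passed the edgeR test (adjusted p of 0.13 to 0.41). Scd1, the stearoyl-CoA desaturase, stood at 79.5, 102 and 57.7 CPM at rest and 145, 152 and 190 after stress. By the same distance 23 of these genes were nearer to S100g than Trpm6 (0.61), 84 nearer than Atp2b1 (0.70), 2207 nearer than Vdr (0.87) and 9218 nearer than Trpv6 (0.98). The distance depends largely on the size of the difference between the groups, which for S100g helped to choose the set. Nothing further is read from this order.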

How the data were processed

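The authors deposited unnormalized counts of reads per Ensembl gene in 6 libraries. Per the submitters' processing notes, fastp, HISAT2 and mm10 were used, with no versions. How reads were counted (tool, annotation, strand) is not given in the sources used. Symbols came from a table of Ensembl identifiers (42462 of 43432 matched), and coordinates and exon lengths from GENCODE M21 on the same build.

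Counts were filtered with filterByExpr (minimum count 10, minimum total 15), scaled by TMM factors (0.985 to 1.02) and tested with the quasi-likelihood F test of edgeR 4.0.16 in R 4.3.3, with Benjamini-Hochberg adjustment over all 16119 tested genes and a threshold of 0.05. The test was checked on simulated counts. The SE of a log2 fold change was taken as its absolute value over the square root of F. The 95% intervals were built from that SE with the t distribution, so both are approximate. CPM are counts relative to the TMM-scaled library total. Alternatives used DESeq2 1.42.0 and limma 3.58.1, other scalings and filters, covariates, and each mouse left out. S100g ratios used a prior count of 2 and tested genes only.

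The members and lists were chosen with earlier results of these data known. Named genes were the 9 members, in each list the genes that passed or else the 2 with the smallest p, and the 5 profiles nearest to S100g (a gene that this rule names is not reported here). Every other list or marker gene named was picked after its values were seen. Each library is a separate mouse per the labels.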

Additional observations from a re-analysis of the deposited data

How the results depend on the processing

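S100g stayed above 0 under all 16 alternatives. It lost the threshold with the small intestine score as a covariate (log2 fold change 1.81, edgeR adjusted p = 0.175) and without resting mouse 15. That score did not overlap between the groups. With each mouse left out the S100g log2 fold change ranged from 1.56 to 1.95. Atp2b1 passed without the filter (0.37) and with gene-wise dispersions (0.37), and ranged from 0.26 to 0.48 with a mouse left out. Trpm6 passed without the filter (0.57), with DESeq2 (0.58), with gene-wise dispersions (0.57) and without stressed mouse 11 (0.70). With a mouse left out Trpm6 ranged from 0.45 to 0.70. Fold changes near 0 turned sign: Vdr with the small intestine score (-0.0105) and relative to the colonocyte marker sum (-0.13), and Rxra with the distal (-0.0384) and small intestine scores (-0.20). With a mouse left out Trpv6 ranged from -0.37 to 0.12, Rxra from -0.0259 to 0.11 and Trpm7 from -0.066 to 0.0263.

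The count of genes passing (5; 4 higher, 1 lower) became 151 without the filter (106 and 45), 56 with DESeq2 (49 and 7), 3 with limma-voom (2 higher) and 148 with gene-wise dispersions (96 and 52). Higher genes fell to 1 with the small intestine score, and lower genes numbered 4 with that score and 3 with the distal score. With a mouse left out the count ran from 1 to 14 (0 to 12 higher, 0 to 4 lower): 1 without resting mouse 15 or stressed mouse 10, and 14 without stressed mouse 11. The cause of these moves was not tested. All ratios of S100g to the 6 tested genes kept their direction in the 7 alternatives run. No paired analysis was possible because the groups share no mouse number. With 13 to 33 counts of Trpv6 in a library, depth limits what can be said of it, and library totals in place of TMM shifted the median of all genes to -0.0346.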
